A study of Homo sapiens with 47 samples.

Results

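The EGFR locus was followed across every group of 2 melanoma cell lines for which chromatin files were used. All deposited intervals that overlap a 400 kb window of chromosome 7, 54950000 to 55350000 in hg19, were taken, whatever their values. They came to 479 of 2305813 intervals. Of these, 410 of 1654632 were ATAC-seq peaks, 25 of 170372 were H3K27ac peaks and 43 of 478961 were H3K9me3 islands. The last was 1 of 1848 intervals of an authors' table named RRR. Each interval was placed by the hg19 gene model of EGFR, which lies on the plus strand. The classes were the upstream flank, the promoter (within 1 kb of the transcription start), intron 1, the rest of the gene from exon 2 to its end, and the downstream flank. Distances are in kb from the transcription start to the middle of an interval, and a negative distance is upstream.

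EGFR is a receptor tyrosine kinase of the plasma membrane. On binding EGF, TGF-alpha or a related ligand it dimerises, phosphorylates its own tail and signals through the RAS-MAPK and PI3K pathways. Melanocytes and most melanomas carry little of it, and its expression is a known feature of some BRAF-mutant melanoma cells that grow in the presence of a BRAF inhibitor. Its promoter is rich in G and C, has no TATA box and binds SP1, and its very long intron 1 is known to hold enhancers. AP-1, a dimer of JUN and FOS proteins, binds TGAGTCA and its reverse complement.

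The series profiled BRAF-mutant 451Lu and WM983B cells, and 32 of its 47 samples had a processed file that was used, while the other 15 were not analysed here. ATAC-seq, which marks open chromatin by where the Tn5 transposase cuts, covered 20 libraries in 10 groups of 2. H3K27ac, an acetylated histone found at active promoters and enhancers, was used from 1 library a group, and H3K9me3, a heterochromatin mark, from 2. The vemurafenib-resistant cells of either line were set against their parental cells. In 451Lu there were 3 engineered pairs, each against its own control. The first was shp150_AP1, with an shRNA against p150 and overexpression of c-JUN and c-FOS, which form AP-1, against vector_NT. The others were AP1, with c-JUN and c-FOS alone, against vector, and shp150, with the hairpin alone, against NT. The name p150 is that of the large subunit of CAF-1, a chaperone that deposits histones behind the replication fork. The labels do not say whether the resistant or engineered cells are clones or pools, nor whether the drug was present at harvest. Nothing says that replicates are separate cultures, and their spread may thus be technical. RNA was not used, so no value below is an expression level of EGFR.

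The ATAC-seq lists held 42898 to 147988 peaks, the longest in WM983B and the shortest in the shp150 cells. Within WM983B the replicates stood further apart than the groups at this locus. Of the 64 ATAC sites called in any WM983B library, 9 were called in both replicates 2 and in neither replicate 1, and 0 in the reverse. None (0) was called in both resistant and neither parental library, and 0 in the reverse. Over the genome, 8.69% of 201296 WM983B regions were called in both replicates 2 and in neither replicate 1, and 3.87% in the reverse.

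RefSeq (GRCh38.p14) lists 2 transcription starts of EGFR with a promoter sequence. Both are shown because the first belongs to the start from which distances are counted, where resistant cells had H3K27ac, and the second carries the AP-1 motif. Each is the 250 bases before a start on the plus strand, chr7:55018767-55019016 and chr7:55109589-55109838 in that build. Capitals mark the GC box GGGCGG or CCGCCC, to which SP1 binds, and the AP-1 motif TGAGTCA or TGACTCA.
EGFR start 1: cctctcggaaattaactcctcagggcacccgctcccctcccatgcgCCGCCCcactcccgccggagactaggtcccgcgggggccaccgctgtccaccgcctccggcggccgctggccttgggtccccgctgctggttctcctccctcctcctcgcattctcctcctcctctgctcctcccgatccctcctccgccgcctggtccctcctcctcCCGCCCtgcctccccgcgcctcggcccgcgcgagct
EGFR start 2: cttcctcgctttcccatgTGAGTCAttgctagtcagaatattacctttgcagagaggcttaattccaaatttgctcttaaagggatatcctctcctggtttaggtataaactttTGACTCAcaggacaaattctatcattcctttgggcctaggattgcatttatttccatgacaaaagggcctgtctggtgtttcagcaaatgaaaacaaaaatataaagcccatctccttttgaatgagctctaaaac
The first promoter was 73.6% G or C, more than in 86.9% of the 35114 human promoter windows of this length. It held 2 GC boxes and 0 AP-1 motifs. The second, 90.8 kb into the gene, was 38.8% G or C and held 2 AP-1 motifs and 0 GC boxes. Its AP-1 motifs began 232 and 136 bases before the start. An AP-1 motif was present in 4.20% of all promoter windows, and 2 or more in 0.182%. A GC box was present in 42.6% and 2 or more in 24.3%. Both strands were searched, and the motifs do not overlap each other. A match describes the letters and is not evidence of binding. No positions were converted between builds, so whether a peak of the hg19 files overlaps the second window was not determined. By distance alone, the listed ATAC-seq sites on either side of 90.8 kb lay at 89.1 and 102 kb.

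Open chromatin at EGFR was spread over the gene and both flanks. Merging the peaks of all 20 libraries gave 67 sites, of which 21 lay in the upstream flank, 1 at the promoter, 20 in intron 1, 15 in the rest of the gene and 10 in the downstream flank. Of these, 7 were listed in all 20 libraries and 26 in 1 library. The constant sites were the promoter, 1 upstream site, 1 site in intron 1, 2 in the rest of the gene and 2 downstream. Some 451Lu library listed 28 sites, and the other 39 were listed in WM983B alone, as were 37.6% of the 208946 sites merged in the same way over the genome. Another 3 of the 67 were listed in 451Lu alone, against 15.1% over the genome. The WM983B lists were the longer ones, most of the 39 sites were listed in replicates 2 alone, and no test was made of these shares. The map of listed intervals shows the few columns that run through every ATAC-seq library and the denser WM983B rows.

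**Figure D1:**
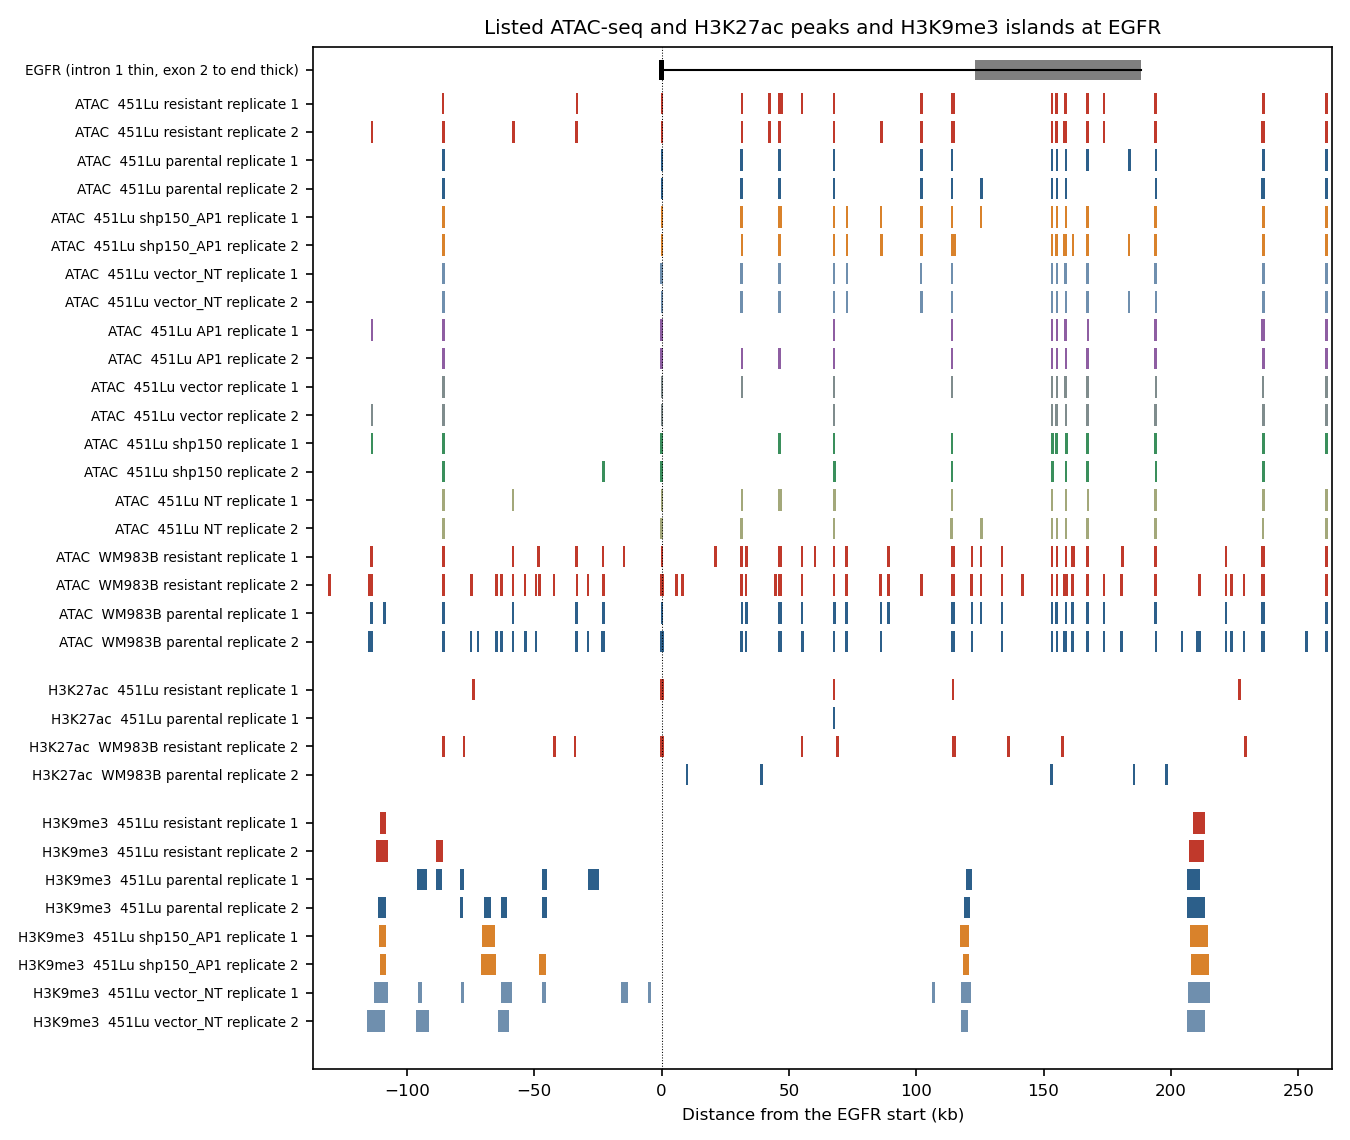
Listed intervals at EGFR, 1 row a library, by distance from the EGFR transcription start in kb (dotted line; the gene model is drawn on top). Bars are ATAC-seq peaks, H3K27ac peaks and H3K9me3 islands, drawn to scale with a small minimum width, and the 451Lu resistant rows hold 20 and 22 ATAC-seq peaks, against 15 and 14 in the parental rows.

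In 451Lu, resistant cells had more listed peaks at EGFR than parental cells. The 2 resistant libraries listed 20 and 22 peaks, and the 2 parental libraries 15 and 14. Both resistant libraries were higher, with a mean of 21.0 ± 1.41 peaks, against 14.5 ± 0.707 in parental cells (SD, n = 2 each). Of 7071 windows of 400 kb over the genome that held a peak, 36.0% were also higher in both resistant libraries and 7.75% lower. The difference of 6.5 peaks at EGFR exceeded that of 95.9% of these windows, whose median was 1.0. Peaks in the window covered 10.4 and 11.1 kb in resistant cells, against 8.64 and 8.59 kb in parental cells. Most of the difference lay in intron 1, with 9 and 8 peaks in resistant cells against 5 and 5 in parental cells. In the upstream flank there were 2 and 4 peaks in resistant cells against 1 and 1 in parental cells. The promoter held 1 peak and the downstream flank 3 in each of the 4 libraries. An exact two-sided test of 2 libraries against 2 cannot give a p below 0.333, and no test was made of this or any other ATAC-seq or H3K9me3 comparison.

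The differences of the engineered pairs were smaller, and whether they differ from that of the resistant pair was not tested. The shp150_AP1 libraries listed 18 and 20 peaks, against 15 and 16 in vector_NT, so both were higher. Of 7086 windows, 22.8% were higher in both shp150_AP1 libraries and 8.28% lower, and the difference of 3.5 at EGFR exceeded that of 93.0% of them. Intron 1 again held the larger count, with 8 and 8 peaks in shp150_AP1 cells against 6 and 6 in vector_NT cells. The AP1 libraries listed 13 and 14 peaks, against 12 and 11 in vector. Both were higher, as in 4.97% of 6878 windows (13.2% were lower), and the difference of 2.0 exceeded that of 96.2% of windows, whose median was -0.5. The shp150 libraries listed 13 and 10 peaks, against 14 and 13 in NT. These groups overlapped at 13, and a lower count in both shp150 libraries was seen in 39.5% of 6952 windows and a higher one in 1.94%. The whole peak lists of shp150 cells were shorter too, with 43913 and 42898 peaks, against 55609 and 53419 in NT cells. In WM983B the resistant libraries listed 35 and 54 peaks, against 33 and 48 in parental cells. These groups overlapped, and replicates 2 were the higher ones in both. Within either replicate number the resistant library listed more, 35 peaks against 33 and 54 against 48. Of 7121 windows, 6.57% had both resistant libraries above both parental libraries and 8.17% had both below, neither of which held at EGFR. How many windows were higher within either replicate number was not counted. The difference between the WM983B means, 4.0 peaks, exceeded that of 94.5% of these windows, whose median was 0.0.

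**Figure D2:**
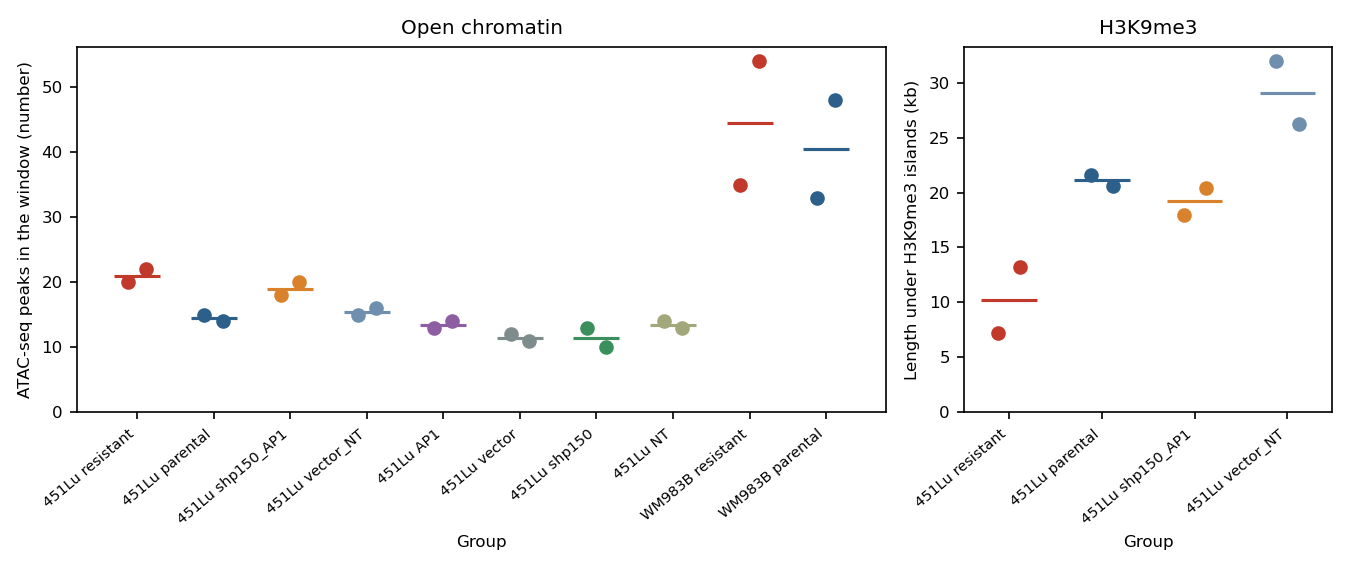
Number of ATAC-seq peaks (left) and length under H3K9me3 islands in kb (right) in the 400 kb window, by group. Points are libraries and lines are the means of 2 libraries. The 451Lu resistant points, 20 and 22 peaks, lie above the parental points, 15 and 14, and their islands cover 7.2 and 13.2 kb, against 21.6 and 20.6 kb.

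Merging the lists of each comparison gave regions that were called gained when both treated libraries listed them and no control library did. They were called lost where the 2 controls alone listed them. Between resistant and parental 451Lu cells, 4 of 25 regions at EGFR were gained (16%) and 0 were lost, while 13 were listed in all 4 libraries. Over the genome 9.79% of regions were gained and 3.96% lost. With peaks of a score of at least 5, 2 regions were gained, and without resistant replicate 1, 7 were. With lists of equal length, or without either parental library, 1 was lost. The 4 gained regions lay in the upstream flank, intron 1 and the rest of the gene, and none was at the promoter.

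The upstream region, at 55053140 to 55053586 (-33.4 kb), scored 8.97 and 6.52 in resistant cells, above 33.1% and 19.6% of the peaks of its own lists. The score is the authors' own value for a peak. It is given to describe a peak within its list, and a difference in score between lists is no measure of a change. How many peaks over the genome had scores that part 2 groups in the same way was not counted. All 4 WM983B libraries listed this region as well, and no other 451Lu library did. The first intronic region, at 55128896 to 55129238 (42.3 kb), scored 4.97 and 7.55, above 10.7% and 28.6% of its lists. None of the other 18 libraries listed it.
The second intronic region, at 55201450 to 55201823 (115 kb), scored 8.81 and 8.62, above 32.5% and 33.9% of its lists. It was also listed in shp150_AP1 replicate 2 and in all 4 WM983B libraries. The region in the rest of the gene, at 55260230 to 55260729 (174 kb), scored 3.98 and 8.85, above 4.88% and 34.5% of its lists. It was also listed in 3 WM983B libraries. All 4 regions thus ranked in the lower part of the resistant lists.

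Of the 4 regions gained in resistant 451Lu cells, 3 (75.0%) were called in some WM983B library, against 70.6% of all regions gained in the genome. Some shp150_AP1 library called 1 of the 4, against 51.1% over the genome. No vector_NT library called any (0 of 4), against 21.2% over the genome.

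Between shp150_AP1 and vector_NT cells, 1 of 21 regions was gained and 0 were lost, and 15 were listed in all 4 libraries. Over the genome 5.19% were gained and 3.26% lost. The gained region, at 55172683 to 55173199 (86.2 kb, intron 1), scored 7.40 and 6.60 in shp150_AP1 cells, above 28.9% and 22.6% of its lists. Resistant replicate 2 also listed it, as did 3 WM983B libraries. When at least 50% of a region had to be covered, 0 were gained, and 3 were gained without either shp150_AP1 replicate. Between AP1 and vector cells, 0 of 15 regions were gained and 0 lost, and 10 were listed in all 4 libraries. Over the genome 1.60% were gained and 2.86% lost. Without AP1 replicate 1, 2 were gained, and without vector replicate 1, 1 was.
Between shp150 and NT cells, 0 of 18 regions were gained and 1 was lost, and 9 were listed in all 4. Over the genome 0.747% were gained and 7.51% lost. The lost region, at 55117939 to 55118401 (31.4 kb, intron 1), scored 5.32 and 5.70 in NT cells, above 13.5% and 22.9% of its lists. It was listed in 14 other libraries. With lists of equal length, or with 50% coverage, 0 were lost. Without shp150 replicate 1 or NT replicate 1, 2 were lost, and without NT replicate 2, 3 were. Without either shp150 replicate, 1 region was gained.
In WM983B, 0 of 66 regions were gained and 0 lost between resistant and parental cells, and 26 were listed in all 4 libraries. Over the genome 1.47% were gained and 1.22% lost. Without resistant replicate 1 the gained regions came to 12, without resistant replicate 2 to 6 and without parental replicate 1 to 2. Without parental replicate 1 the lost regions came to 7, without resistant replicate 2 to 2 and without parental replicate 2 to 1. On lists of equal length 1 was lost.

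The promoter was open in every library. Its site, at 55086314 to 55087382, scored 21.8 and 20.3 in resistant 451Lu cells, against 23.5 and 19.8 in parental cells. These scores overlapped and lay above 68.7% and 65.8% of the peaks in the resistant lists, against 68.6% and 61.9% in the parental lists. In the engineered cells the promoter scored 24.4 and 17.6 in shp150_AP1, against 22.9 and 23.0 in vector_NT, which overlapped. It scored 15.4 and 10.6 in AP1 cells, against 11.9 and 9.51 in vector cells, which overlapped. It scored 7.53 and 9.27 in shp150 cells, against 14.6 and 15.2 in NT cells, so both hairpin scores were the lower ones. It ranked above 48.6% and 62.3% of the shp150 lists, against 68.6% and 77.5% of the NT lists. In WM983B it scored 6.36 and 24.7 in resistant cells, against 5.27 and 22.9 in parental cells. These overlapped, and within either replicate number the resistant score was the higher, but the ranks within lists went both ways. In replicates 1 the promoter stood above 49.0% of the resistant list, against 40.1% of the parental list. In replicates 2 it stood above 88.0%, against 91.6%.

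The intron 1 site at 55153900 to 55154944 (67.7 kb) was listed in all 20 libraries, with scores of 10.7 to 49.3 and a median of 28.1. Resistant cells had 49.3 and 48.1 there, against 41.6 and 48.0 in parental cells, and all 4 values stood above at least 87.3% of their own lists. In shp150_AP1 cells it scored 48.7 and 45.4, against 27.8 and 43.4 in vector_NT cells, so both shp150_AP1 scores were the higher ones. In shp150 cells it scored 16.1 and 10.7, against 26.8 and 24.2 in NT cells, so both shp150 scores were the lower ones. In AP1 cells it scored 19.2 and 22.5, against 21.1 and 19.0 in vector cells, which overlapped.
The site at 55200384 to 55201101 (114 kb), next to the gained region at 115 kb, was listed in 19 of 20 libraries, all but vector replicate 2. It scored 20.5 and 22.6 in resistant cells, against 6.51 and 9.53 in parental cells. Within their lists these ranked above 66.6% and 69.5% of peaks in resistant cells, against 19.0% and 34.6% in parental cells. It scored 13.6 and 20.2 in shp150_AP1 cells, against 12.4 and 5.74 in vector_NT cells, again both higher. In AP1 cells it scored 6.91 and 9.09, against 5.71 in vector replicate 1, so both AP1 scores were above the 1 listed vector score. In shp150 cells it scored 11.5 and 17.3, against 27.4 and 13.9 in NT cells, which overlapped. In WM983B it scored 17.9 and 34.1 in resistant cells, against 25.1 and 30.6 in parental cells, and these overlapped.
A weaker intronic site at 46.5 kb scored 7.02 and 11.1 in resistant cells, against 4.66 and 5.52 in parental cells. In shp150_AP1 cells it scored 15.8 and 18.6, against 9.33 and 5.47 in vector_NT cells. Its scores in WM983B were 33.6 and 39.0 in resistant cells, against 31.6 and 35.9 in parental cells. They overlapped, with the resistant score the higher within either replicate number, and all 4 were above any 451Lu score there. The ranks within lists went both ways. The site stood above 98.5% of the resistant and 98.0% of the parental list in replicates 1. In replicates 2 it stood above 97.9% and 98.7%. The site at 102 kb was listed in the 8 libraries of resistant, parental, shp150_AP1 and vector_NT cells and in 1 of the other 12. It scored 3.01 and 3.67 in resistant cells, against 3.73 and 4.63 in parental cells, so both resistant scores were the lower ones. The scores there were 8.95 and 15.7 in shp150_AP1 cells, against 7.57 and 7.99 in vector_NT cells, and both shp150_AP1 scores were the higher ones.

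**Figure D3:**
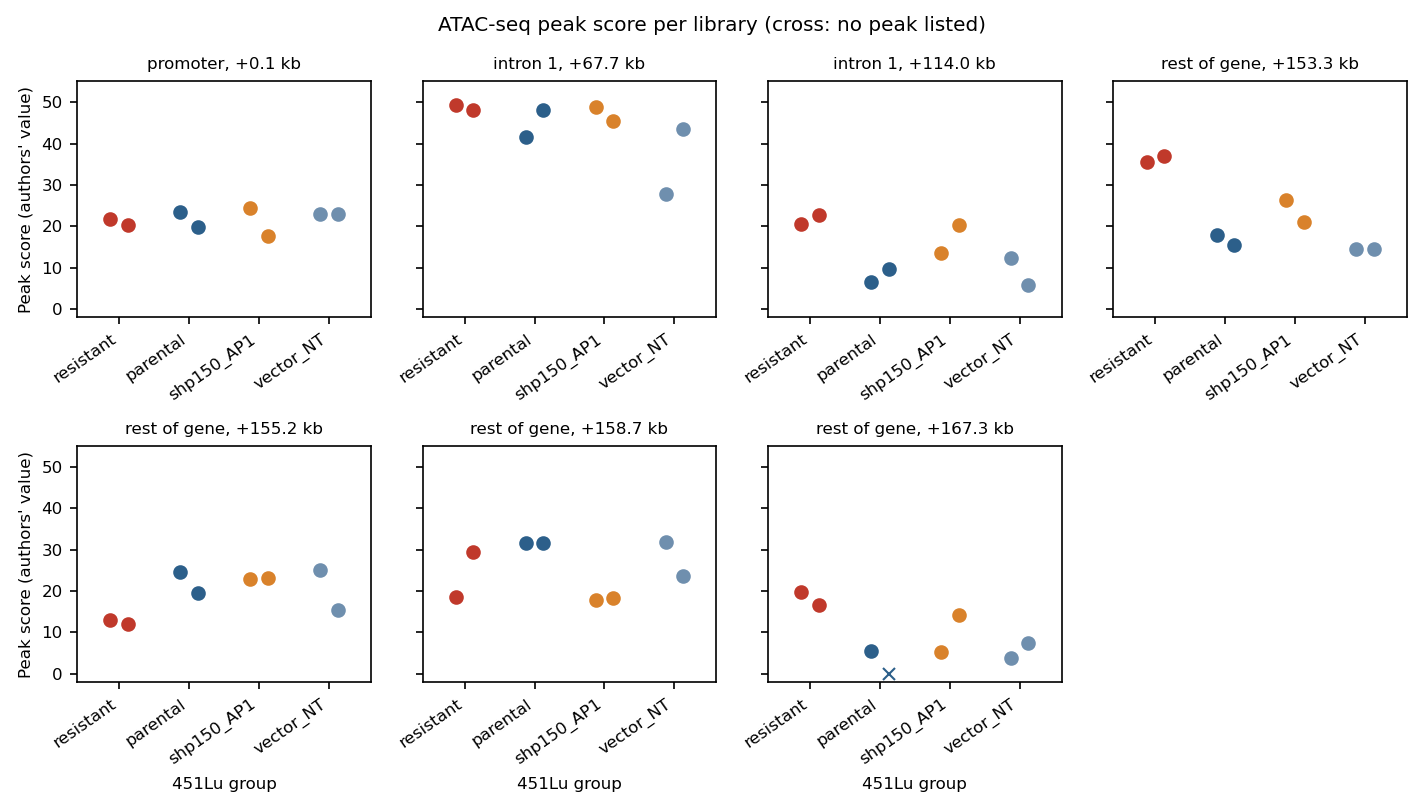
ATAC-seq peak score (the authors' value, y axis) per library at the promoter and the 6 other sites within EGFR listed in at least 18 of 20 libraries, for the 451Lu resistant, parental, shp150_AP1 and vector_NT groups. Points are libraries and a cross marks a library with no peak listed. At 114 kb the resistant points are 20.5 and 22.6, against 6.51 and 9.53 in parental cells, and at the promoter the groups overlap.

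In the rest of the gene, 2 sites were listed in all 20 libraries. The site at 55239814 to 55240304 (153 kb) scored 35.6 and 37.0 in resistant cells, against 17.8 and 15.4 in parental cells. It ranked above 84.9% and 85.4% of the resistant lists, against 58.8% and 52.8% of the parental lists. In shp150_AP1 cells it scored 26.4 and 21.0, against 14.5 and 14.6 in vector_NT cells. At this site the higher scores were thus in resistant and in shp150_AP1 cells of 451Lu, each beside its own control. The share of sites over the genome with such an order of scores was not counted, for this or any other site. The other pairs overlapped. It scored 9.45 and 17.5 in AP1 cells, against 11.7 and 13.9 in vector cells. In shp150 cells it scored 7.95 and 10.3, against 17.7 and 8.76 in NT cells. In WM983B it scored 21.8 and 36.5 in resistant cells, against 22.4 and 28.5 in parental cells. The parental WM983B library alone listed an H3K27ac peak on it. At 55241565 to 55242255 (155 kb), 1 site further on, the order was the opposite. There resistant cells had 13.0 and 12, against 24.5 and 19.4 in parental cells, above 49.3% and 46.7% of the resistant lists and 70.2% and 61.0% of the parental lists. In shp150_AP1 cells this site scored 23.0 and 23.3, against 25.2 and 15.5 in vector_NT cells, which overlapped. The other constant site, at 159 kb, scored 18.5 and 29.5 in resistant cells, against 31.6 and 31.7 in parental cells. Its ranks overlapped, above 62.7% and 78.5% of the resistant lists and 78.9% and 77.8% of the parental lists. There were scores of 17.8 and 18.2 in shp150_AP1 cells, against 31.8 and 23.7 in vector_NT cells, so both shp150_AP1 scores were the lower ones.
The site at 55253704 to 55254367 (167 kb) had the highest score of this class, 46.0 in WM983B resistant replicate 2. It scored 19.8 and 16.6 in resistant 451Lu cells, against 5.51 in parental replicate 1, and it was not listed in parental replicate 2. In shp150_AP1 cells it scored 5.34 and 14.3, against 3.75 and 7.51 in vector_NT cells, and these overlapped. In WM983B it scored 34.4 and 46.0 in resistant cells, against 35.6 and 25.6 in parental cells, which overlapped.

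Of the flanking sites, 16 of 21 upstream and 7 of 10 downstream were listed in WM983B alone, beside the 37.6% of merged sites over the genome. Most of these were listed in replicates 2 alone. Just 1 library listed 10 of those upstream and 3 of those downstream, while all 4 WM983B libraries listed 0 and 1. The constant upstream site at 55000513 to 55001458 (-85.7 kb) scored 19.6 and 13.6 in resistant 451Lu cells, against 17.2 and 25.3 in parental cells, which overlapped. In shp150 cells it scored 13.8 and 15.9, against 17.9 and 17.9 in NT cells, so both shp150 scores were the lower ones. Its ranks there overlapped, above 82.3% and 87.8% of the shp150 lists, against 77.6% and 83.9% of the NT lists. Its highest score was 46.1, in WM983B resistant replicate 2, and the parental replicate 2 had 38.2. Downstream, the site at 55280259 to 55281128 (194 kb) scored 30.8 and 35.8 in resistant cells, against 38.5 and 41.9 in parental cells. In shp150_AP1 cells it scored 24.0 and 26.5, against 53.4 and 35.6 in vector_NT cells, and 53.4 was the highest score of any site. The site at 236 kb scored 30.7 and 37.8 in resistant cells, against 36.6 and 39.2 in parental cells, which overlapped. Of the sites merged over all 20 libraries, which join some regions of the single comparisons, 25 were listed in all 4 WM983B libraries, and 4 of these in no 451Lu library, as were 4.70% of all merged sites over the genome. They lay at 33.2 and 122 kb in intron 1, at 134 kb in the rest of the gene and at 222 kb downstream. The site at 122 kb scored 9.08 and 37.5 in resistant WM983B cells, against 9.59 and 36.5 in parental cells.

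**Figure D4:**
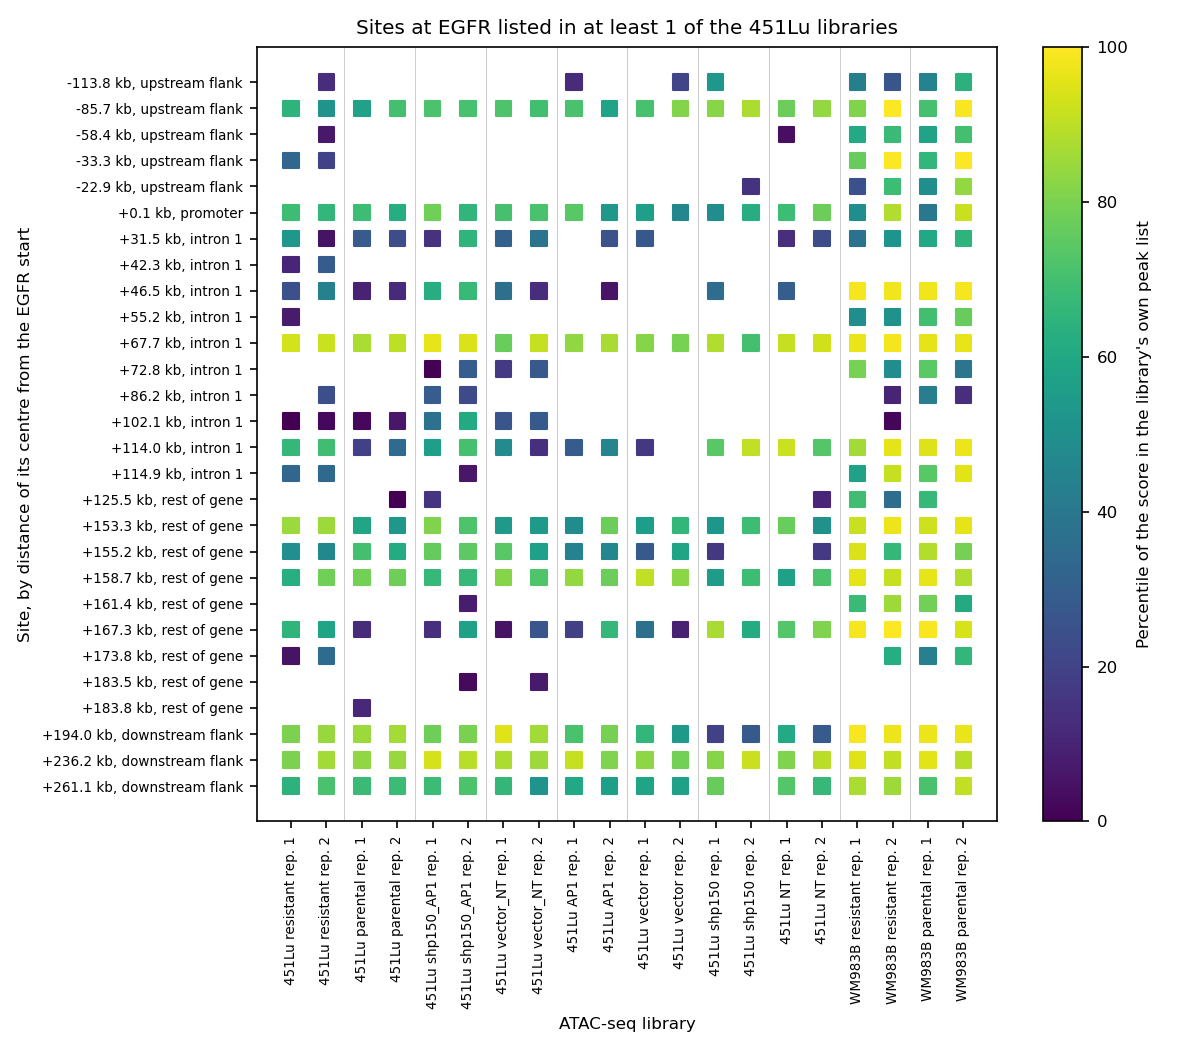
The 28 sites listed in some 451Lu library (rows, by kb from the EGFR start) in each of the 20 ATAC-seq libraries (columns). Colour is the percentile of the site's score within that library's own peak list, and a blank means that no peak was listed. The 67.7 kb row is bright throughout, and the 42.3 kb row is filled in the resistant columns alone.

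H3K27ac appeared at the EGFR promoter in resistant cells of both lines and in neither parental library. There was 1 library a group, replicate 1 in 451Lu and replicate 2 in WM983B, so the differences have no replicate check. In 451Lu the resistant library listed 6 peaks in the window and the parental library 1. Of the 6 regions, 5 were resistant-only and 0 parental-only. Over the genome 50.3% of regions were resistant-only and 19.9% parental-only, and the resistant list was the longer, with 51710 peaks against 32304. On lists of equal length, 2 were resistant-only. In WM983B the resistant library listed 13 peaks in the window and the parental library 5. All 18 regions were listed in 1 library, 13 resistant-only and 5 parental-only. Over the genome 21.2% were resistant-only and 43.8% parental-only, and here the resistant list was the shorter, with 36022 peaks against 50336. For lists of equal length the parental list was cut to 36022 peaks and the resistant list stayed whole. Its 13 resistant-only regions could thus not change, and the parental-only regions came to 1. With a score of at least 5, 8 were resistant-only and 1 parental-only.

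At the promoter the resistant 451Lu library listed a pair of peaks, with their middles on either side of the start. They lay at 55086382 to 55086764, with a score of 5.62, and at 55087036 to 55087431, with a score of 8.18, above 31.3% and 54.1% of its list. The resistant WM983B library listed the same pair of regions, at 55086474 to 55086772 with a score of 4.67 and at 55086948 to 55087571 with a score of 6.79. These ranked above 17.5% and 41.1% of its list. Both pairs fell within or across the edge of the open promoter site, which every ATAC-seq library listed, parental ones included.
In intron 1, H3K27ac at 114 kb was listed at 55200856 to 55201557 in resistant 451Lu cells, with a score of 6.83, and at 55200892 to 55201546 in resistant WM983B cells, with a score of 6.62. It was in neither parental library. Both peaks overlap the ATAC-seq site at 114 kb and the region at 115 kb that resistant 451Lu cells gained. Resistant WM983B cells listed another at 115 kb, at 55201713 to 55202151, with a score of 9.44. At 67.7 kb, the ATAC-seq site of intron 1 that all 20 libraries listed, the 451Lu libraries listed H3K27ac with a score of 8.36 in resistant and 6.77 in parental cells. WM983B listed no H3K27ac peak on that site, and the nearest resistant peak lay at 69.1 kb.

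Over both lines, 3 of 21 H3K27ac regions at EGFR were listed in both resistant and neither parental library (14.3%), against 4.83% over the genome. The reverse held for 0 of 21, against 3.17% over the genome. The 3 regions were the promoter pair and the one at 114 kb. On equal lists the 451Lu peak at 55086382 dropped out, while those at 55087036, 67.7 kb and 114 kb remained.
The other resistant peaks did not coincide between the lines. In 451Lu they lay at -73.8 and 227 kb, with scores of 4.13 and 5.77. In WM983B the highest was at 157 kb, with a score of 9.98, above 61.7% of its list, and others lay at -85.7, -77.6, -42.1, -34.0, 136 and 229 kb, with 1 more in intron 1, at scores of 3.22 to 6.36. The 5 parental WM983B peaks lay at 10.0, 39.2, 153, 186 and 198 kb, with scores of 2.86 to 5.28. Of the 67 ATAC-seq sites, 8 carried an H3K27ac peak in some library.

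**Figure D5:**
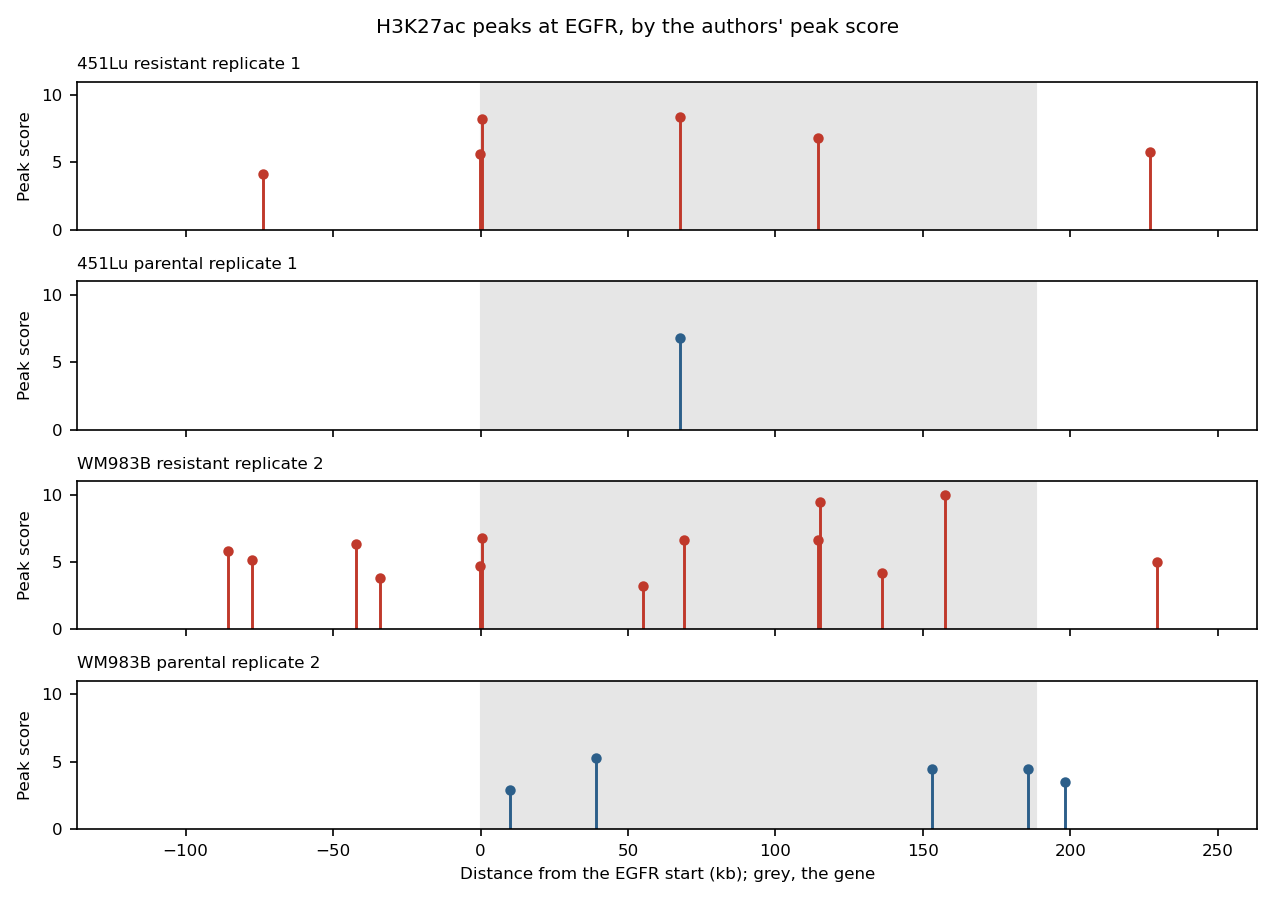
H3K27ac peaks at EGFR by distance from the transcription start in kb (x axis) and the authors' peak score (y axis), 1 panel a library. Grey marks the gene. Both resistant panels have a pair of peaks at the start and 1 at 114 kb, and the parental panels have none there.

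H3K9me3 islands covered less of the window in resistant than in parental 451Lu cells, and the window went with most of the genome in this. They covered 7.2 and 13.2 kb in resistant cells, against 21.6 and 20.6 kb in parental cells, so both resistant values were the lower ones. The means were 10.2 ± 4.24 and 21.1 ± 0.707 kb (SD, n = 2 each), a difference of -10.9 kb. Of 6836 windows of this length, 62.0% were lower and 15.6% higher in both resistant libraries, and their median difference was -7.5 kb. Without any 1 library the difference was -13.9 to -7.9 kb. It shrank to -5.0 kb for islands with a fold of at least 2 over input, and to -0.2 kb with the same number of islands in every library. The resistant lists held 40010 and 50181 islands, against 61888 and 70879 in the parental lists, with 14820360 and 13222196 reads inside islands against 15722441 and 18296612.
In shp150_AP1 cells islands covered 18.0 and 20.4 kb of the window, against 32.0 and 26.2 kb in vector_NT cells. The means were 19.2 ± 1.70 and 29.1 ± 4.10 kb (SD, n = 2 each), a difference of -9.9 kb. Both shp150_AP1 values were the lower ones, as in 64.2% of 6932 windows (9.29% were higher), whose median difference was -8.8 kb. The direction turned, to 0.3 kb, for islands with a fold of at least 2, and to 0.2 kb with the same number of islands in every library. The series lists no input sample for shp150_AP1 replicate 1, so which input its folds rest on is not known. The shp150_AP1 libraries had fewer reads inside islands, 11504516 and 14859453, than the vector_NT libraries, 31117459 and 21784204. What depth contributed to either difference was not tested.

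The islands of all 8 libraries merged into 13. Of these, 10 lay in the upstream flank, 2 in intron 1, 1 in the downstream flank and 0 in the rest of the gene. None overlapped the promoter in any library, parental ones included, and the nearest upstream island, at -4.72 kb, was listed in vector_NT replicate 1 alone. Between resistant and parental cells 3 of 10 regions were lost (30.0%) and 0 gained. Over the genome 17.7% were lost and 3.06% gained. The lost regions were at 55007401 to 55009200 (-78.4 kb), at 55039801 to 55041800 (-45.9 kb) and at 55205601 to 55208600 (120 kb, intron 1).
The intron 1 region had 94 ChIP reads over 86 input reads in parental replicate 1 and 124 over 77 in parental replicate 2. The authors' folds over input were 1.59 and 2.16, and no island was listed there in resistant cells. Islands that overlap this region were listed in both shp150_AP1 libraries with folds of 1.48 and 1.70, and in both vector_NT libraries with folds of 1.21 and 1.56. These are low folds, and a library without an island may hold reads below the caller's threshold. The parental island began 3.78 kb after the end of the ATAC-seq region that resistant cells gained at 115 kb, and 4.04 kb after the end of the resistant H3K27ac peak.
Between shp150_AP1 and vector_NT cells, 2 of 11 regions were lost, at 54990201 to 54995400 (-93.9 kb) and at 55022601 to 55027800 (-61.5 kb), against 13.8% over the genome. The 1 gained region was at 55015801 to 55021600 (-68.0 kb), where the fold was 2.03 and 1.93 in shp150_AP1 cells, against 1.87% gained over the genome. Parental replicate 2 listed an island there too, with a fold of 1.95. Each of the 2 lost regions was also listed in 1 parental library, and at -61.5 kb the vector_NT folds were 1.20 and 2.46. None of these 3 was among the 3 regions lost in resistant cells. The island at 55293001 to 55302200 (211 kb, downstream) was listed in all 8 libraries. Its fold was 2.05 and 2.07 in resistant cells, against 2.39 and 2.47 in parental cells, and 2.27 and 2.01 in shp150_AP1 cells, against 2.21 and 2.39 in vector_NT cells.

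The authors' deposited table of RRR intervals in 451Lu held 1 interval in the window. It was printed as 55000000 to 55260000 of chromosome 7, and came to 280 kb with its last 20 kb step, longer than 79.1% of the 1848 intervals. With that step it covered 70.0% of the window and held 53 of the 67 ATAC-seq sites, among them all 4 regions that resistant cells gained. The sites at 174 to 184 kb, among them the gained region at 55260230, start after the printed end. They are inside only with that step. In the authors' deposited table its mean normalized count was 1010, its log2 fold change 1.53 with a standard error of 0.37, its p-value 3.19e-05 and its adjusted p-value 6.25e-05. The authors' deposited table gives no assay, no libraries and no direction for a positive value, so no difference between resistant and parental cells is read from it. The interval ranked 378 of 1848 by log2 fold change, and the median of the authors' deposited table was 0.15. Of all its intervals, 33.2% had an adjusted p-value under 0.05 with a positive and 41.2% with a negative fold change.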

How the data were processed

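The window, the classes and the sites were chosen with earlier results of these data known, so no count here is independent support for them. The submitters' processing notes name hg19 as the build and, without a role or an order, the tools MACS2, SICER, Bowtie2, Picard, deepTools and STAR 2.5.3. No source used here gives which tool made which file, how duplicates were treated, or whether ATAC-seq cut positions were moved to the centre of the Tn5 site. Each ATAC-seq or H3K27ac list comes from 1 library, and its peaks carry a score that the authors deposited on a scale not given. The smallest ATAC-seq scores were about 2.0 in 451Lu and 1.3 in WM983B, so the lines may not share a threshold. Each H3K9me3 list holds the islands of 1 library. Its deposited columns were read as the ChIP read count, the input read count, a p-value, the ChIP over input fold and an adjusted p-value. The authors deposited the RRR table with a signal (the mean normalized count), a log2 fold change and its error, a test score, a p-value and an adjusted p-value.

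Intervals that shared at least 1 bp were merged, and the same overlap made a region called. Genome-wide shares used all regions of the same comparison, or all 400 kb windows of a grid that holds the EGFR window, where some library had an interval. Percentiles rank a score within its own list. Peak lists carry no total read depth, which is unknown here, and the caller's threshold limits what a missing peak can show. The rule for sites named singly took the promoter, each region gained or lost in ATAC-seq and the highest-scoring site of each class. The other sites, the H3K27ac peaks and the H3K9me3 islands were named after their values were seen. No hg19 annotation was used beyond the known start, exon 2 and end of EGFR, so lineage markers and genes with a like pattern were not looked up. The merging and calling were tested on simulated intervals. Alternatives were lists of equal length, 50% coverage, a score of at least 5, a fold of at least 2, an adjusted p-value under 0.01 for islands, and leaving out each library. Computation used Python 3.11.15 and matplotlib 3.10.9.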

Additional observations from a re-analysis of the deposited data

How the results depend on the processing

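Over 16 results and 96 alternatives, 64 values stayed within 1.5 times of the reported count or 1 SD of the reported length, and 2 changed sign. The 64 include counts of 0 that stayed 0. They also include the adjusted p-value limit for islands, which every island of the window already met, so it could change nothing. Nor could lists of equal length change the resistant-only H3K27ac count in WM983B, where the resistant list was not cut. With lists of equal length, lost ATAC-seq regions came to 1 in resistant 451Lu, 0 in shp150 and 1 in WM983B cells, resistant-only H3K27ac to 2 in 451Lu and parental-only to 1 in WM983B. With 50% coverage, gained regions in shp150_AP1 and lost regions in shp150 cells both came to 0. With a score of at least 5, gained regions in resistant 451Lu cells came to 2, and in WM983B resistant-only H3K27ac came to 8 and parental-only to 1. The H3K9me3 difference for resistant cells came to -5.0 kb with a fold of at least 2 and -0.2 kb with an equal number of islands. For shp150_AP1 cells it turned to 0.3 kb (12.2 against 11.9 kb in vector_NT) and 0.2 kb (17.5 against 17.3 kb). The cause was not tested. Leaving out 1 library at a time, gained and lost ATAC-seq regions ranged over 4 to 7 and 0 to 1 in resistant 451Lu, 1 to 3 and 0 to 0 in shp150_AP1, 0 to 2 and 0 to 0 in AP1, 0 to 1 and 1 to 3 in shp150, and 0 to 12 and 0 to 7 in WM983B cells. The H3K9me3 differences ranged over -13.9 to -7.9 kb for resistant and -12.8 to -7.0 kb for shp150_AP1 cells. No paired analysis was possible because the results come from no test, and so no fit could hold the replicate number as a block. Pairs of the same number are set side by side for WM983B alone. A missing peak or island says only that no interval passed the caller's threshold in that library.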
